A study of Mus musculus with 6 samples.

Results

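Osteopontin and the cell surface receptors that bind it were followed through single-cell RNA libraries of myeloid cells from mouse visceral fat. The 6 genes are Spp1 (ENSMUSG00000029304), which encodes osteopontin, Cd44 (ENSMUSG00000005087), and the integrin chains Itgav (ENSMUSG00000027087), Itgb1 (ENSMUSG00000025809), Itgb3 (ENSMUSG00000020689) and Itgb5 (ENSMUSG00000022817). They were taken by symbol from the 33456 genes of the deposited tables, and each symbol stood on 1 row. The groups were 3 samples of mice labelled HFD (the high-fat diet group) and 3 samples of mice labelled control. All 6 samples were epididymal fat digested with collagenase and sorted for CD45, the surface antigen of leukocytes, and CD11b, the integrin chain encoded by Itgam. Strain, age, sex and time on diet are not given in the labels, which also do not say that the samples of one diet came from separate mice. The p-values below therefore reflect how far these 6 samples scatter, and part of that scatter may be technical.

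Osteopontin is a secreted, phosphorylated glycoprotein of bone matrix that macrophages also make, and in fat it is known as a product of macrophages that gather in obesity. It carries an RGD sequence that binds integrins built from the αv chain (Itgav) with a β1, β3 or β5 chain (Itgb1, Itgb3, Itgb5). CD44, the main receptor of hyaluronan, is its best known receptor outside the integrins. Proteases and kinases act on the protein after translation and change which receptors it can bind, so a transcript level is not a level of active ligand.

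The 6 matrices held 5511 entries, an entry being 1 barcode in 1 sample, but only 2195 distinct barcodes. Of these, 1082 (49.3%) were listed in several samples and 370 in all 6. Each barcode was therefore counted only where it had most UMIs (unique molecular identifiers, 1 per captured transcript), and 2114 cells were kept, 453, 295 and 380 in HFD 1, 2 and 3, against 388, 260 and 338 in control 1, 2 and 3. Kept UMIs per sample ranged from 1997647 to 5708323, with a median per cell of 9735 in HFD and 7233.5 in control. Levels are CPM, counts per 1e6 UMIs of the cells summed. Clusters made without the 6 genes gave 1099 macrophage-like cells, 696 of 1128 HFD cells (61.7%) and 403 of 986 control cells (40.9%). Ptprc and Itgam, which encode the sorted antigens, had a UMI in 67.9% and 54.5% of them, but in only 12.7% and 7.42% of the 229 fibroblast or adipocyte progenitor-like cells that came through the sort.

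Spp1 was higher in each HFD sample than in each control sample. It had 548, 176 and 165 CPM (3126, 630 and 751 UMIs) in HFD 1, 2 and 3, against 10.3, 60.1 and 47.2 CPM (40, 120 and 128 UMIs) in control 1, 2 and 3. HFD 1 stood far above the other HFD samples, control 1 below the other controls, and the diets did not overlap. The means were 296 ± 218 CPM in HFD and 39.2 ± 25.8 CPM in control (SD, n = 3 each). The log2 fold change was 2.85 ± 0.63 (SE), with an adjusted p of 0.0084 by edgeR's quasi-likelihood test with Benjamini-Hochberg adjustment over 10450 genes. In that fit 32.4% of all genes passed the threshold of 0.05, that is 15.2% of all genes higher and 17.2% lower in HFD, so a call by itself is common here. Likewise, 31.8% of genes had all HFD samples above all control samples, and 17.7% the reverse. Without HFD 1 the log2 fold change was 2.05 (edgeR adjusted p 0.027). In sums over whole samples, more cells of a type and more RNA per cell cannot be told apart.

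**Figure D1:**
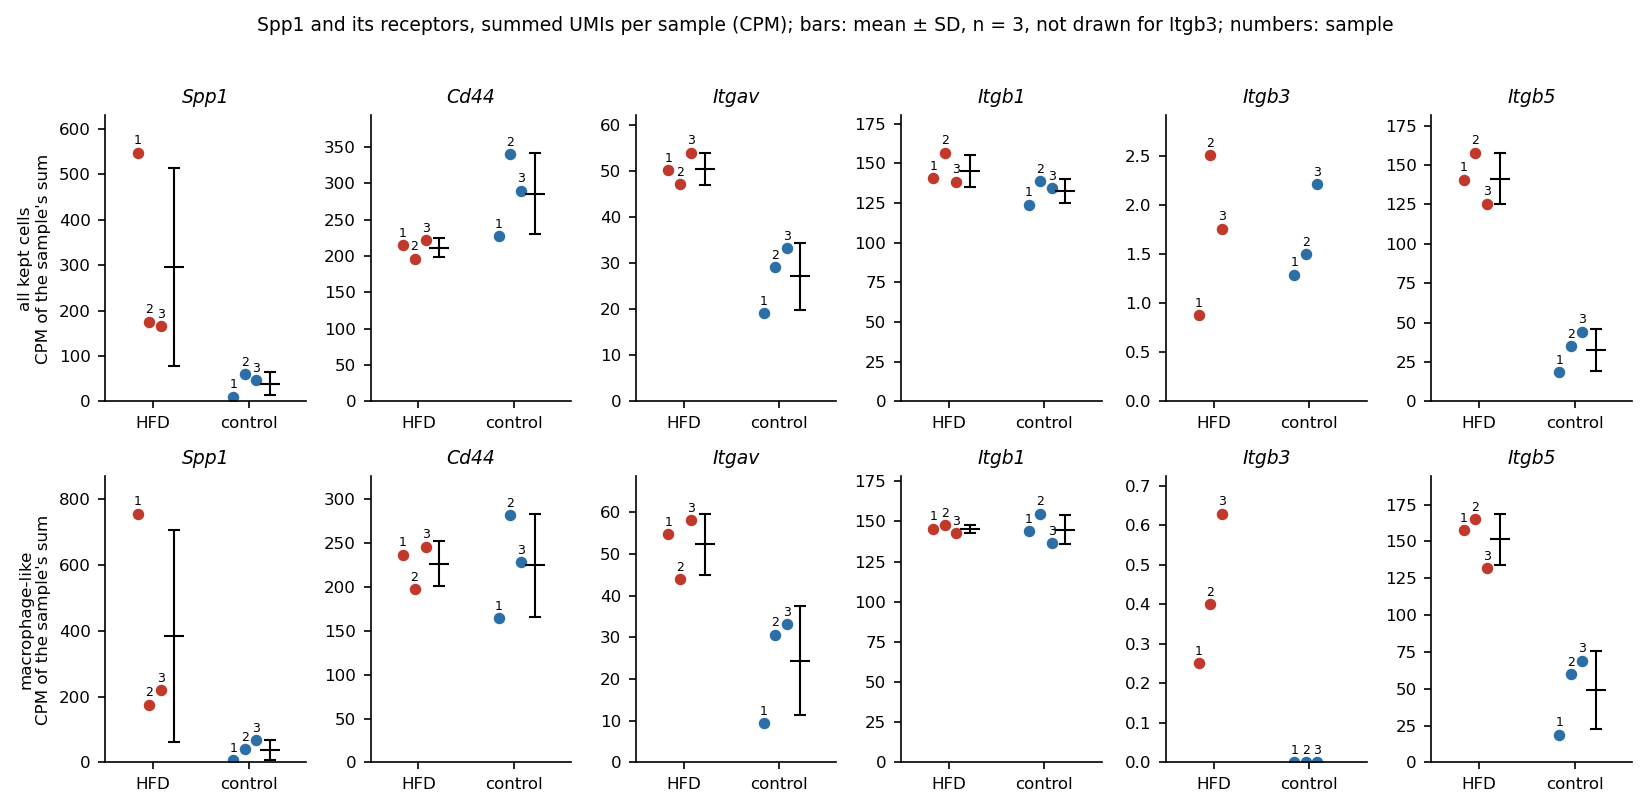
Levels of the 6 genes (vertical axes, CPM) in HFD and control samples, over all kept cells (top) and over macrophage-like cells (bottom). Points are samples, numbered, and bars are mean ± SD of 3 samples except for Itgb3. Spp1, Itgav and Itgb5 lie higher in every HFD sample in both rows, and HFD 1 stands apart for Spp1 at 548 CPM.

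Of the 5 receptor genes, Itgb5 and Itgav rose in HFD, Cd44 fell, Itgb1 did not pass the test and Itgb3 had too few UMIs to be tested. Cd44 had 215, 197 and 222 CPM in HFD 1, 2 and 3, against 228, 340 and 290 CPM in control 1, 2 and 3. Control 1 was only just above HFD 3, and the diets did not overlap. The means were 211 ± 13.2 CPM in HFD and 286 ± 56.2 CPM in control (SD, n = 3 each), with a log2 fold change of -0.57 ± 0.14 (edgeR adjusted p 0.012). That call was lost without HFD 2, at -0.52 (edgeR adjusted p 0.054). Cells of the unnamed clusters, in which Cd44 was high, numbered 21, 7 and 9 in HFD 1, 2 and 3, against 115, 81 and 115 in control 1, 2 and 3, and their part in the difference was not tested.

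Itgav, the αv chain shared by the classical osteopontin receptors, had 50.1, 47.1 and 53.9 CPM in HFD 1, 2 and 3, against 19.1, 29.0 and 33.2 CPM in control 1, 2 and 3. The HFD samples lay close together and above all controls. The means were 50.4 ± 3.40 CPM in HFD and 27.1 ± 7.23 CPM in control (SD, n = 3 each), with a log2 fold change of 0.78 ± 0.18 (edgeR adjusted p 0.0097). With only barcodes listed in exactly 1 sample it was 0.42 (edgeR adjusted p 0.15), and the call was lost.

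Among the β chains that pair with αv, Itgb5 changed most. It had 141, 158 and 125 CPM in HFD 1, 2 and 3, against 18.3, 35.0 and 44.2 CPM in control 1, 2 and 3. Every HFD sample was well above every control sample, and control 1 was again the lowest. The means were 141 ± 16.2 CPM in HFD and 32.5 ± 13.1 CPM in control (SD, n = 3 each), with a log2 fold change of 2.01 ± 0.24 (edgeR adjusted p 0.00056). Itgb1, the β chain of many matrix receptors, had 140, 157 and 138 CPM in HFD 1, 2 and 3, against 124, 139 and 135 CPM in control 1, 2 and 3. These ranges overlapped, and the log2 fold change was -0.01 ± 0.09 (edgeR adjusted p 0.97). Itgb3, the β chain of the vitronectin receptor of osteoclasts and platelets, had 5, 9 and 8 UMIs in HFD 1, 2 and 3, against 5, 3 and 6 UMIs in control 1, 2 and 3, too few for a difference to be detectable at this depth.

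The fibroblast or adipocyte progenitor-like cells, which carry Itgb5 and Itgav, were also unevenly spread between the diets, 207 of them in HFD and 22 in control. The summed level of 8 fibroblast markers, none of which was at 0 in any sample, was 3087, 4134 and 3345 CPM in HFD 1, 2 and 3, against 1096, 317 and 776 CPM in control 1, 2 and 3. Their part in the whole-sample differences was not tested.

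Within macrophage-like cells, Spp1, Itgav and Itgb5 were again higher in HFD. Fibroblast transcripts in these cells also moved with diet. The 8 fibroblast markers summed to 217, 275 and 284 CPM in macrophage-like cells of HFD 1, 2 and 3, against 184, 58.4 and 87.4 CPM in those of control 1, 2 and 3, where 2 markers were at 0 in control 2. Of these, Col3a1 (2.26 ± 0.40) and Col1a2 (1.77 ± 0.43) rose (edgeR adjusted p 0.0073 and 0.023), and their part in the values below was not tested. Spp1 had 755, 176 and 220 CPM in HFD 1, 2 and 3, against 6.08, 40.9 and 68.2 CPM in control 1, 2 and 3. HFD 1 was the highest by far, and the diets did not overlap. The means were 384 ± 323 CPM in HFD and 38.4 ± 31.1 CPM in control (SD, n = 3 each), and the log2 fold change was 3.29 ± 0.74 (edgeR adjusted p 0.018). Of the 8687 genes tested in these cells, 17.8% were called, 7.29% higher and 10.5% lower, and 23.9% lay higher and 15.8% lower without overlap. The Spp1 call was lost without HFD 1 at 2.34 (edgeR adjusted p 0.059) and without control 2 at 3.36 (edgeR adjusted p 0.070). It was 2.70 without control 1 (edgeR adjusted p 0.024) and 4.29 without control 3 (edgeR adjusted p 0.0065). With the sample number as a block the fold change was 3.10 (edgeR adjusted p 0.073) in these cells and 2.68 (edgeR adjusted p 0.056) over whole samples, and neither passed the threshold. With every entry counted as deposited, the entries were clustered and named anew, so the macrophage-like class was not the same. A cluster led by Pcp4l1 and Cpe, with 204 entries, reached the macrophage level but was left unnamed there. The Spp1 log2 fold change in that class was 1.54 (edgeR adjusted p 0.047), and the part of the changed class was not tested.

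Itgb5 had 158, 165 and 132 CPM in macrophage-like cells of HFD 1, 2 and 3, against 18.9, 59.9 and 69.0 CPM in those of control 1, 2 and 3. All HFD values were above all control values, and the log2 fold change was 1.59 ± 0.34 (edgeR adjusted p 0.014). The call was lost without HFD 1 at 1.56 (edgeR adjusted p 0.059) and without HFD 2 at 1.53 (edgeR adjusted p 0.054). Itgav had 54.7, 44.0 and 58.2 CPM in HFD 1, 2 and 3, against 9.46, 30.7 and 33.2 CPM in control 1, 2 and 3. Again there was no overlap, with control 1 far below the rest, but the log2 fold change of 1.11 ± 0.33 passed only narrowly (edgeR adjusted p 0.048). That call was lost when any sample but control 3 was left out, with log2 fold changes of 0.64 to 1.29 and edgeR adjusted p-values of up to 0.14. Cd44 did not pass here. It had 237, 197 and 246 CPM in HFD 1, 2 and 3, against 165, 282 and 228 CPM in control 1, 2 and 3, overlapping ranges with a log2 fold change of -0.06 ± 0.18 (edgeR adjusted p 0.85). Itgb1 varied little, at 146, 148 and 143 CPM in HFD 1, 2 and 3, against 144, 155 and 136 CPM in control 1, 2 and 3 (log2 fold change -0.09 ± 0.11, edgeR adjusted p 0.62).

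The macrophage-like cells of the diets lay in different clusters. Those of HFD were mostly in clusters led by Hpgd (240 HFD and 37 control cells), Mmp12 and Mfge8 (196 and 12) and Cpe (163 and 37), and those of control mostly in clusters led by Cd209f (39 HFD and 209 control cells) and Ccl12 (3 and 65). A further cluster led by Fosl2, Retnla and F13a1, with 9 HFD cells (0.798%) and 105 control cells (10.6%), reached the level of macrophage markers set for the class. It was left unnamed because its 10 leading genes held a marker of the classical monocyte list (F13a1) and one of the type 2 innate lymphoid cell list (Areg) but none of the macrophage list, although the resident macrophage genes Mrc1 and Lyve1 were among them.

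Spp1 came from few cells. A Spp1 UMI was seen in 417 of 1128 HFD cells and 71 of 986 control cells, 488 of 2114 in all (23.1%), and 254 of these 488 held 1 UMI. The 66 cells with at least 10 Spp1 UMIs held 81.7% of all 4795, and 7 cells held 50% or more. In HFD 1, 1 cell alone held 1814 of 3126 Spp1 UMIs (58.0%), while the next held 113. The highest cells of HFD 2 and HFD 3 held 121 and 80 UMIs, against 12, 51 and 39 UMIs in control 1, 2 and 3. Without the highest cell of each sample, the levels were 232, 144 and 148 CPM in HFD 1, 2 and 3, against 7.25, 34.8 and 33.4 CPM in control 1, 2 and 3, so that HFD 1 lay much nearer to the other HFD samples. With only that 1 cell of HFD 1 left out, the log2 fold change was 2.22 over whole samples (edgeR adjusted p 0.0058) and 2.58 in macrophage-like cells (edgeR adjusted p 0.013).

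**Figure D2:**
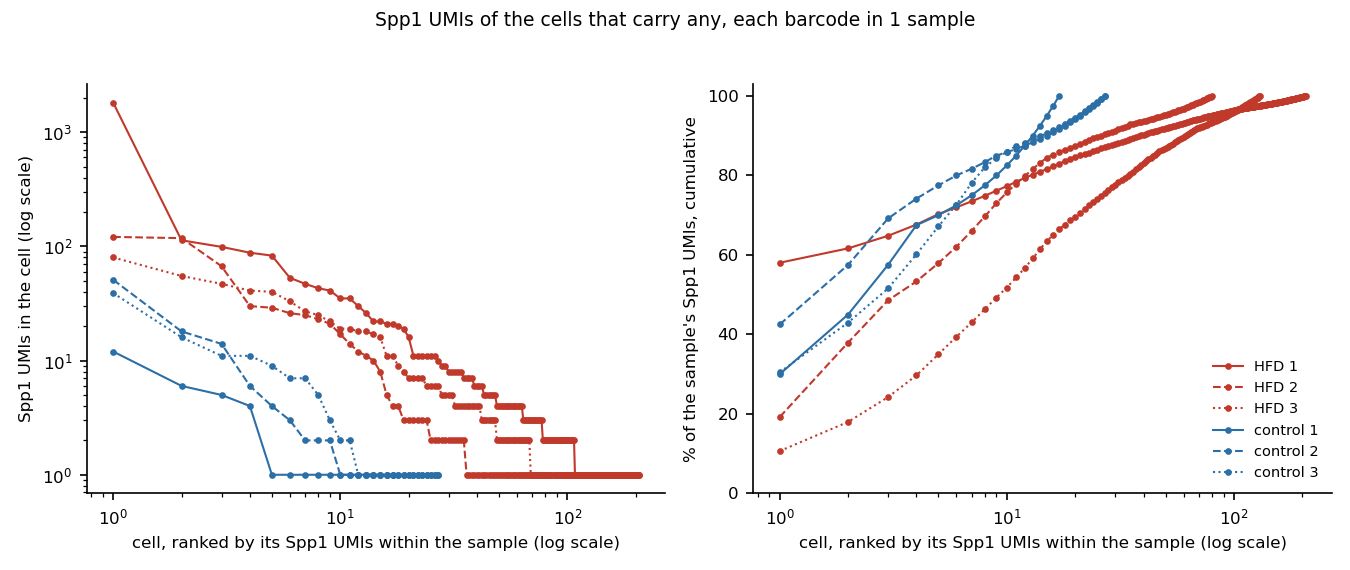
Left, Spp1 UMIs of each cell that carries any (vertical axis, log scale) against its rank within the sample (horizontal axis, log scale). Right, the cumulative share of the sample's Spp1 UMIs in percent over the same ranks. Red lines are HFD samples and blue lines control samples. The HFD 1 line starts at 1814 UMIs on the left and at 58.0% on the right, and on the left its second cell is already down to 113 UMIs.

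The cell with most Spp1 belonged to the macrophage-like cluster led by Cpe. It had 62869 UMIs and 6240 genes, the deepest of HFD 1 and second among all kept cells, so that its Spp1 came to 289 UMIs per 10000. It also held 8 UMIs of Cd44, 6 of Itgav, 13 of Itgb1 and 22 of Itgb5. Its barcode was listed in all 6 samples. The entries not counted had 278 and 245 Spp1 UMIs in HFD 2 and HFD 3, against 249, 230 and 287 in control 1, 2 and 3, with 7197 to 7503 UMIs in total each. The Spp1 level was thus alike in all 6 entries of this barcode, between 289 and 396 UMIs per 10000, whichever the diet of the library.

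Over whole samples, counting every entry as deposited moved the Spp1 fold change further than that of the 4 receptors tested. The levels became 482, 226 and 210 CPM in HFD 1, 2 and 3, against 106, 168 and 156 CPM in control 1, 2 and 3. The control levels were all higher than before, though still below the HFD levels, and the log2 fold change was 0.98 ± 0.28 (edgeR adjusted p 0.026). Of the Spp1 UMIs, 21.1% in HFD samples and 86.2% in control samples lay in entries of barcodes that had more UMIs in another sample, against 22.3% in HFD and 42.2% in control of all UMIs. In control samples 80.2% of Spp1 UMIs lay in entries whose largest entry was in an HFD sample, and the barcode of the highest cell alone gave 36.6%. The corresponding smaller-entry shares of the receptors in HFD and control were 22.0% and 35.6% for Cd44, 13.04% and 48.7% for Itgav, 17.0% and 33.9% for Itgb1 and 11.3% and 61.3% for Itgb5. With only barcodes listed in exactly 1 sample, the Spp1 log2 fold change was 1.93 over whole samples (edgeR adjusted p 0.055, lost) and 4.31 in macrophage-like cells (edgeR adjusted p 0.0013). Why barcodes recur between samples was not tested.

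**Figure D3:**
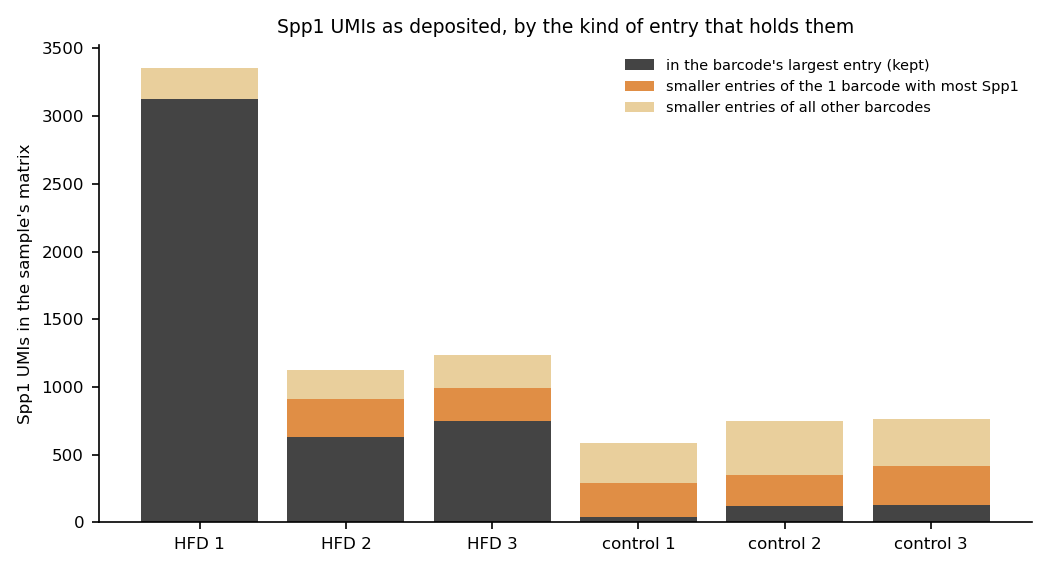
Spp1 UMIs in each deposited matrix (vertical axis) by the kind of entry that holds them. Dark bars are entries in which the barcode has most UMIs, orange bars the smaller entries of the barcode with most Spp1, and pale bars the smaller entries of all other barcodes. Orange and pale bars together make up 21.1% of the HFD total and 86.2% of the control total.

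The spread of Spp1 between samples of one diet was wide for its level. Its coefficient of variation over whole samples was 73.6% in HFD and 65.9% in control, where genes with a mean within a factor of 2 of its own had medians of 6.08% in HFD and 12.1% in control. It exceeded 99.7% of 706 such genes in HFD and 99.0% of 3183 in control. In each diet the spread rested on 1 sample. Without HFD 1 the coefficient of variation of the remaining HFD samples was 4.31%, and without control 1 that of the remaining controls was 17.0%. Without the 1 cell with most Spp1 it was 18.9% over the 3 HFD samples. Itgb5 varied by 11.5% in HFD and 40.4% in control, Itgav by 6.76% and 26.7%, Cd44 by 6.24% and 19.7%, and Itgb1 by 6.89% and 5.76%. Genes of like level had medians between 6.07% and 7.93% for these receptors in HFD and between 8.42% and 13.9% in control, so that Itgb5 lay above the median of its like in both diets, Cd44 and Itgav were above it in control by a wide margin, and Itgb1 was below it in control. Itgb3 is left out for its few UMIs. Within macrophage-like cells the coefficient of variation of Spp1 was 84.1% in HFD and 81.1% in control.

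Detection was compared after each cell was thinned to 2000 UMIs, which left out 2, 17 and 18 cells of control 1, 2 and 3 that were shallower. A Spp1 UMI then remained in 18.3%, 10.5% and 10.3% of cells of HFD 1, 2 and 3, against 1.55%, 6.17% and 2.81% of cells of control 1, 2 and 3. The shares did not overlap and averaged 13.03% ± 4.58 in HFD and 3.51% ± 2.39 in control (SD, n = 3 each). The difference of 9.52 percentage points (6.87 without HFD 1) had p = 0.1 in a two-sided exact permutation test, the smallest p that 3 against 3 samples allow. Without thinning the means were 35.7% in HFD and 7.59% in control. With every entry counted as deposited, and thinned, they were 15.1% in HFD and 8.95% in control (exact permutation p = 0.1). With barcodes of exactly 1 sample they were 8.75% in HFD and 3.79% in control, the samples overlapped, and the exact permutation p was 0.3. As a measure of free RNA, plasma cell-like cells, taken as a type that should lack the gene, had a Spp1 UMI in 1 of 43 thinned cells (2.33%, exact 95% interval 0.0589 to 12.3%, median depth 10341 UMIs). Macrophage-like cells had one in 134 of 1085 (12.4%, 10.5 to 14.5%, median depth 9462 UMIs). T cell-like cells, a type known to make osteopontin on activation, had one in 7 of 51 (13.7%, 5.70 to 26.3%, median depth 4180 UMIs). Fibroblast or adipocyte progenitor-like cells had one in 6 of 229 (2.62%), close to the plasma cell-like share. This background also differed by diet. Before thinning, plasma cell-like cells held 9 Spp1 UMIs in HFD (27.5 CPM, 22 cells, median depth 10677 UMIs), against 0 in control (21 cells, median depth 9568 UMIs), which allows up to 12.1 CPM. Fibroblast or adipocyte progenitor-like cells held 28 in HFD (19.2 CPM, 207 cells), against 0 in control (22 cells), which allows up to 15.9 CPM. The part of free RNA in the share of cells with a UMI was not tested. Intervals cover counting error only.

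Macrophage-like cells held 88.9% of all Spp1 UMIs, and among them the level differed widely by cluster. The cluster led by Cpe, Zranb3 and Mmp12 had the highest level in UMIs pooled over samples, 869 CPM, or 366 CPM without the highest cell, and alone held 64.5% of all Spp1 UMIs. The cluster led by Mmp12, Mfge8 and Gpnmb followed with 285 CPM, the one led by the interferon-induced chemokine gene Cxcl9 with 109 CPM and the one led by Hpgd with 79.4 CPM. The cluster led by Cd209f, with the resident macrophage genes Lyve1 and Cd163 among its leading genes, had 12.4 CPM, and the one led by the chemokine genes Ccl12 and Ccl2 had 4.34 CPM. Outside the class, cycling cells had 250 CPM, classical monocyte-like cells 167 CPM and T cell-like cells 70.2 CPM. The cycling level rested on few cells, since 133 of its 187 UMIs lay in 8 cells of HFD 2. Of the 117 classical monocyte-like cells, 20 had a Spp1 UMI.

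Per sample, the Cpe-led cluster had 1845, 385 and 332 CPM in HFD 1, 2 and 3, against 197 and 173 CPM in control 2 and control 3, which had 12 and 24 such cells, while control 1 had 1. All HFD values were above these control values, in far more cells. The cluster led by Mmp12 and Mfge8 had 339, 150 and 356 CPM in HFD 1, 2 and 3, against 79.4 CPM in the 11 cells of control 3. The order of clusters was not the same in every sample, since this cluster was above the Cpe-led one in HFD 3. Cycling cells were above the Cpe-led cluster in HFD 2 (951 CPM in 8 cells) and in control 3 (332 CPM in 3 cells). Classical monocyte-like cells were above the Cpe-led cluster in control 2. Classical monocyte-like cells had 178, 260 and 17.3 CPM in HFD 1, 2 and 3, against 110.4, 299.2 and 6.25 CPM in control 1, 2 and 3. Here the diets overlapped, and HFD 3 and control 3 were far below the other samples, with 2 and 1 Spp1 UMIs. These levels rested on few cells. In control 1, 1 cell held all 12 Spp1 UMIs of the class. In control 2, 2 cells with 51 and 18 UMIs held most of its 75. Spp1-high cells, as defined below, numbered 2, 1 and 0 in this class in HFD 1, 2 and 3, against 1, 2 and 0 in control 1, 2 and 3.

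**Figure D4:**
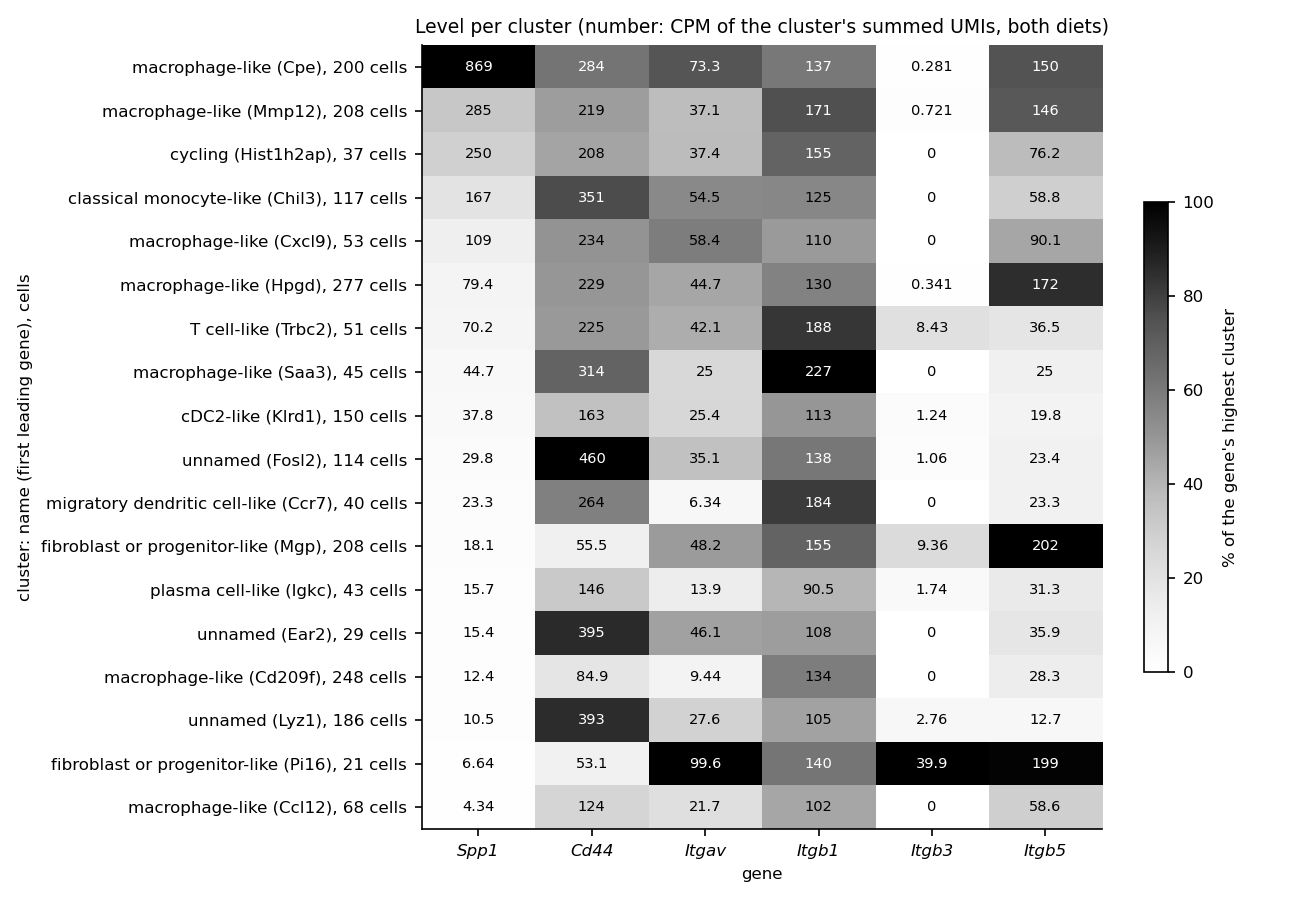
Level of each gene (columns) in the 18 clusters of at least 20 cells (rows, named with the first leading gene and the number of cells). Numbers are CPM of the summed UMIs of both diets, and the shade is the percent of the gene's highest cluster shown. Spp1 peaks in the macrophage-like cluster led by Cpe at 869 CPM, while the peaks of the receptors lie in other clusters. Those of Itgav and Itgb3 rest on few UMIs.

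Cells were called Spp1-high from 10 Spp1 UMIs per 10000. There were 13, 9 and 10 in HFD 1, 2 and 3 (2.87%, 3.05% and 2.63% of kept cells), against 1, 2 and 1 in control 1, 2 and 3 (0.258%, 0.769% and 0.296%). The HFD shares lay close together and above all control shares, and averaged 2.85% ± 0.210 in HFD and 0.441% ± 0.285 in control (SD, n = 3 each). The difference of 2.41 percentage points again had the smallest possible p, 0.1, in the two-sided exact permutation test. At this threshold, unlike in the summed level, the share of Spp1-high cells did not set HFD 1 apart from HFD 2 and HFD 3. At 5 per 10000 the shares were 5.74%, 4.07% and 5.26% in HFD 1, 2 and 3. At 1 per 10000, a threshold added after seeing the data, HFD 1 was the highest, with 144, 46 and 83 of 453, 295 and 380 cells. The call is a range of a continuous level, with 15 cells between 8 and 12 UMIs per 10000. With every entry counted as deposited the mean shares were 3.26% in HFD and 3.04% in control (exact permutation p = 0.6), and with barcodes of exactly 1 sample they were 0.866% and 0.300% (exact permutation p = 0.4).

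Of the 36 Spp1-high cells, 28 were macrophage-like, and all 28 came from HFD samples (28 of 696, or 4.02%), against 0 of 403 control macrophage-like cells, which allows a share of up to 0.744% for counting error over cells, not for the spread between samples. The diet of a barcode listed in several samples was set by its largest entry. With only barcodes listed in exactly 1 sample, 1, 0 and 3 of 156, 43 and 85 macrophage-like cells were Spp1-high in HFD 1, 2 and 3. In control 1, 2 and 3 it was 0 of 85, 42 and 77. These cells are few, and the difference was not tested. As deposited, control samples held 99 Spp1-high entries of any type, and 85 of these had their largest entry in an HFD sample. At 5 UMIs per 10000 there were 23, 10 and 20 macrophage-like cells called in HFD 1, 2 and 3, against 0, 2 and 4 in control 1, 2 and 3. Of the 28 called at 10 per 10000, 14 lay in the cluster led by Cpe, 9 in the one led by Mmp12 and Mfge8, 3 in the one led by Hpgd and 2 in the one led by Cxcl9. Classical monocyte-like cells gave 6 Spp1-high cells, 3 from HFD and 3 from control.

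Over the 18 clusters of at least 20 cells, the receptors had other peaks than Spp1, for Itgav and Itgb3 on few UMIs. Cd44 was highest in the unnamed clusters led by Fosl2 (460 CPM), Ear2 (395 CPM) and Lyz1 (393 CPM) and in classical monocyte-like cells (351 CPM). It was lowest in fibroblast or adipocyte progenitor-like cells (55.3 CPM) and in the macrophage-like cluster led by Cd209f (84.9 CPM). The clusters led by Fosl2 and Lyz1 had 9 and 3 cells from HFD, against 105 and 183 from control, and together the unnamed clusters held 23.7% of Cd44 UMIs. Itgav was highest in the fibroblast-like cluster led by Pi16 (99.6 CPM), but on only 15 UMIs in 21 cells. The Cpe-led macrophage-like cluster followed (73.3 CPM, 261 UMIs in 200 cells), and whether these levels differ was not tested. Next came the Cxcl9-led cluster (58.4 CPM) and classical monocyte-like cells (54.5 CPM).

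Itgb1 was the most even receptor, from 90.5 CPM in plasma cell-like cells to 227 CPM in the macrophage-like cluster led by Saa3. Itgb5 was high in fibroblast or adipocyte progenitor-like cells (202 CPM) and in the macrophage-like clusters led by Hpgd (172 CPM), Cpe (150 CPM) and Mmp12 (146 CPM). It was low in the macrophage-like clusters led by Cd209f (28.3 CPM) and Saa3 (24.98 CPM), in type 2 conventional dendritic cell-like cells (19.8 CPM) and in the unnamed cluster led by Lyz1 (12.7 CPM). In the Hpgd-led cluster Itgb5 had 191, 171 and 171 CPM in HFD 1, 2 and 3, against 61.7, 100.2 and 107 CPM in control 1, 2 and 3, where these rest on 3, 7 and 12 UMIs. In the Mmp12-led cluster it had 140, 171 and 132 CPM in HFD 1, 2 and 3, against 152 CPM in control 3, and in the Cd209f-led cluster 81.3, 37.2 and 25.3 CPM in HFD 1, 2 and 3, against 15.9, 36.8 and 24.0 CPM in control 1, 2 and 3. The diets overlapped in both of these clusters, and the control 3 value of the Mmp12-led one rests on 21 UMIs in 11 cells. In the Cpe-led cluster Itgb5 had 165, 189 and 130 CPM in HFD 1, 2 and 3, against 94.0 and 90.4 CPM in control 2 and control 3. Those control values rest on 10 and 34 UMIs, the 1 cell of control 1 had 0, and the diets did not overlap. Of the 36 Itgb3 UMIs, 20 lay in fibroblast or adipocyte progenitor-like cells and 4 in macrophage-like cells.

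Receptor UMIs were also counted in the barcodes of Spp1-high cells. After thinning to 2000 UMIs, 22 of 28 Spp1-high macrophage-like cells (78.6%, exact 95% interval 59.0 to 91.7%) had a UMI of at least 1 receptor gene, against 423 of 668 other macrophage-like cells of HFD (63.3%, 59.5 to 67.0%). Cd44 was seen in 9 of 28 Spp1-high and 223 of 668 other cells, Itgav in 4 and 63, Itgb1 in 10 and 156, and Itgb5 in 11 and 164. Itgav and Itgb5 were seen in the same cell in 1 of 28 Spp1-high cells and 16 of 668 others, and pairs are seldom detected at this depth. Plasma cell-like cells had a UMI of Cd44 in 6 of 43 thinned cells (14.0%), of Itgb1 in 12 (27.9%) of Itgb5 in 3 (6.98%) and of Itgav in 0 (exact 95% upper bound 8.22%). The Itgb1 shares, 35.7% in Spp1-high and 23.4% in other cells, lay near the plasma cell-like share. Before thinning, Itgb1 had 145 CPM in macrophage-like and 90.5 CPM in plasma cell-like cells. Whether plasma cell-like cells make these receptors themselves was not tested, so their shares do not measure free RNA here. Cells are not replicates, and these shares were not tested.

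Spp1-high and other macrophage-like cells were then compared within samples, with Spp1 taken out of the sums. At 10 UMIs per 10000 only HFD 1 and HFD 3 had the 10 cells required of each kind, and 19 of 8280 genes passed (0.229%), 3 higher (0.0362%) and 16 lower (0.193%). At 5 UMIs per 10000 all 3 HFD samples entered with 23, 10 and 20 Spp1-high cells, and 349 of 7709 genes passed (4.53%), 162 higher (2.1%) and 187 lower (2.43%). All 19 genes were called again in the same direction. The cells called at 10 are among those called at 5, in the same libraries, so this is not a separate test. At 1 UMI per 10000, a threshold added after seeing the data, 248 of 8498 genes passed (2.92%), 1.31% higher and 1.61% lower. Spp1-high cells were deeper, with median UMIs of 24562, 14803 and 12470 in HFD 1, 2 and 3, against 11078, 12412.5 and 11748 in other cells, and the part of depth in these calls was not tested. The following values are from the 5 UMI threshold.

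None of Cd44, Itgav, Itgb1 and Itgb5 passed edgeR's test after adjustment, and Itgav alone had an unadjusted p under 0.05. Itgav had 67.6, 84.8 and 88.3 CPM in Spp1-high cells of HFD 1, 2 and 3, against 52.5, 40.9 and 54.7 CPM in their other macrophage-like cells. It was higher in each sample, with a log2 fold change of 0.63 ± 0.21 (edgeR adjusted p 0.088). Itgb5 (0.19 ± 0.15) and Itgb1 (0.18 ± 0.15) were likewise higher in 3 of 3 samples, and Cd44 (-0.29 ± 0.16) was lower in 2 of 3, with edgeR adjusted p-values between 0.43 and 0.69.

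Genes of the lipid-associated macrophage list mostly rose with Spp1. Of 16 tested, 14 were higher and 1 lower (edgeR), with a median log2 fold change of 0.54 where all genes had -0.02. Gpnmb, a lysosomal membrane glycoprotein gene, had 3954, 2680 and 3256 CPM in Spp1-high cells of HFD 1, 2 and 3, against 1317, 1021 and 1012 CPM in others (1.56 ± 0.10, edgeR adjusted p 8.9e-13). The protease gene Ctsl (1.34 ± 0.11), the galectin-3 gene Lgals3 (0.86 ± 0.08) and the tetraspanin gene Cd9 (1.151 ± 0.11) followed by p. The member that fell was Apoe, the apolipoprotein E gene, at -0.97 ± 0.11 (edgeR adjusted p 9.6e-08). Some of these genes also lead the clusters in which most Spp1-high cells lie.

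Resident macrophage genes fell, 8 of 9 tested, with a median of -1.57. They include F13a1 (-2.54 ± 0.23), the mannose receptor gene Mrc1 (-1.46 ± 0.18), Cbr2 (-2.36 ± 0.29) and the platelet factor 4 gene Pf4 (-0.86 ± 0.11), while Folr2 did not pass (0.28 ± 0.12). The genes with the largest rises were led by Mfge8, whose product is itself an RGD protein bound by αv integrins (1.88 ± 0.18, edgeR adjusted p 4.7e-09). It had 1059, 401 and 1278 CPM in Spp1-high cells of HFD 1, 2 and 3, against 375, 181 and 182 CPM in others. Next came the macrophage elastase gene Mmp12 (1.63 ± 0.14), Serpinb6b (1.63 ± 0.20), Pcp4l1 (1.57 ± 0.23), Gpnmb, the cathepsin gene Ctsk (1.55 ± 0.14), Ctsl and the syndecan-1 gene Sdc1 (1.29 ± 0.25). The largest falls were in the chemokine gene Ccl12 (-2.89 ± 0.30), Saa3 (-2.69 ± 0.27), the leukotriene C4 synthase gene Ltc4s (-2.67 ± 0.34), F13a1, Retnla (-2.36 ± 0.19), Cbr2, Wfdc17 (-2.34 ± 0.14) and the chemokine gene Ccl5 (-2.18 ± 0.26).

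At the threshold of 10 the 3 genes higher in Spp1-high cells were Mfge8 (1.73 ± 0.19, edgeR adjusted p 0.0013), the cytokine gene Tnf (1.45 ± 0.19, edgeR adjusted p 0.0057) and the carboxypeptidase E gene Cpe (1.24 ± 0.19, edgeR adjusted p 0.013). Each was higher in both samples that entered.

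**Figure D5:**
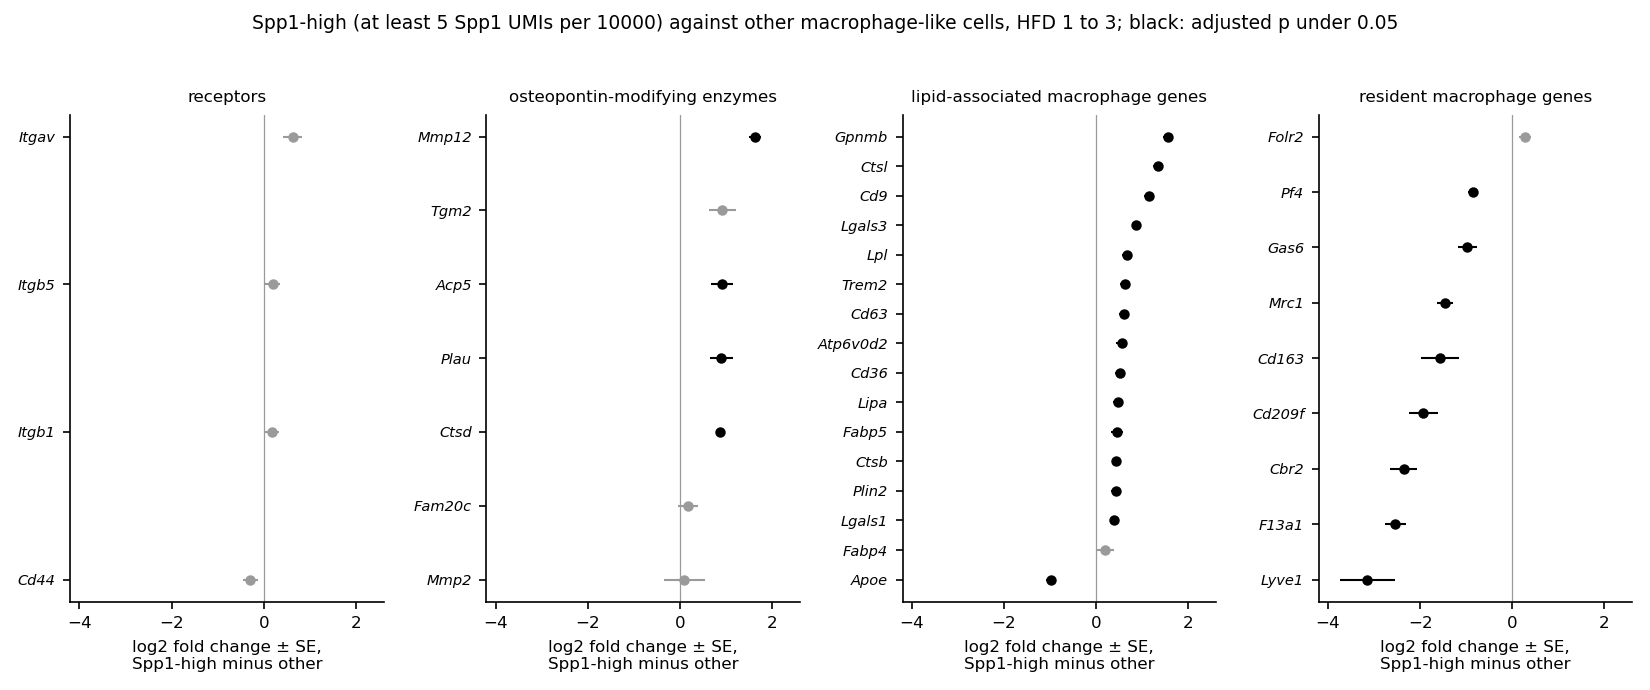
Log2 fold change ± SE of Spp1-high (at least 5 Spp1 UMIs per 10000) over other macrophage-like cells of HFD 1, 2 and 3, for the receptors and 3 gene lists. Black points passed edgeR's test and grey points did not. Receptors are grey throughout, 14 of 16 lipid-associated genes lie to the right in black and 8 of 9 resident genes to the left.

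Osteopontin-modifying enzymes were looked at next, as genes whose products cleave, phosphorylate, dephosphorylate or cross-link the protein. Of 9 tested over whole samples 5 rose in HFD and 0 fell, where 15.2% of all genes rose and 17.2% fell, with a median log2 fold change of 1.10 where all genes had -0.02. The stromelysin gene Mmp3 had 30.5, 42.9 and 49.7 CPM in HFD 1, 2 and 3, against a single UMI in the 3 control samples together. The gelatinase gene Mmp2 rose by 2.45 ± 0.23, the cathepsin D gene Ctsd by 1.62 ± 0.22 and the tartrate-resistant phosphatase gene Acp5 by 1.10 ± 0.26 (edgeR adjusted p 0.00023, 0.00082 and 0.012). Mmp2 and Mmp3 are known products of fibroblasts, whose markers moved with diet as given above, and their part was not tested. In macrophage-like cells 2 of 8 rose, Ctsd by 1.34 ± 0.27 and Mmp2 by 1.496 ± 0.38 (edgeR adjusted p 0.012 and 0.028). In Spp1-high cells 4 of 7 were higher, Mmp12 with the value above, Ctsd (0.88 ± 0.09), Acp5 (0.91 ± 0.23) and the urokinase gene Plau (0.90 ± 0.25).

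Other integrin chains that bind osteopontin went in both directions over whole samples, with 1 of 4 tested up and 2 down, beside 15.2% and 17.2% of all genes. Itga5, the partner of β1 in the fibronectin receptor, rose by 0.48 ± 0.16 (edgeR adjusted p 0.043). Itga4 and Itgb7, which pair in a receptor of lymphocytes and myeloid cells, fell, with log2 fold changes of -1.004 ± 0.13 and -1.84 ± 0.18 (edgeR adjusted p 0.00076 and 0.00028). The same 3 passed in macrophage-like cells, at 0.77 ± 0.17, -0.87 ± 0.17 and -1.71 ± 0.31. In Spp1-high cells 0 of the 4 passed, with log2 fold changes from -0.47 to 0.54, and 0 had an unadjusted edgeR p under 0.05.

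Other ligands of these receptors were likewise mixed, with 4 of 10 up and 3 down over whole samples, beside the same shares of all genes. Fbn1 (2.59 ± 0.27) and Col1a1 (3.23 ± 0.40), which encode fibrillin-1 and a collagen chain made by fibroblasts, rose together with the fibroblast markers. Srgn (-1.32 ± 0.12), which encodes the CD44 ligand serglycin, and Tgfbi (-1.12 ± 0.12), which encodes an RGD protein of the matrix, fell. In macrophage-like cells 1 of 7 rose and 4 fell, among them Tgfbi (-1.14 ± 0.13), Srgn (-1.07 ± 0.17), the fibronectin gene Fn1 (-2.44 ± 0.59) and the thrombospondin gene Thbs1 (-3.73 ± 0.99), while Mfge8 rose (1.93 ± 0.56). In Spp1-high cells Mfge8 was higher and Tgfbi lower (-0.83 ± 0.19) among 6 tested. Of 4 further genes of the SIBLING family of osteopontin, the small integrin-binding glycoproteins of bone and tooth, 0 had enough UMIs to be tested.

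Cd44 partners and genes of hyaluronan, its main ligand, gave 2 of 8 up and 3 down over whole samples, beside 15.2% and 17.2% of all genes. The hyaluronan synthase gene Has1 rose by 2.26 ± 0.32. The hyaluronan receptor gene Lyve1 (-2.29 ± 0.20), the membrane linker gene Ezr (-1.31 ± 0.17) and Cd74 (-0.84 ± 0.12), whose product pairs with CD44 as a receptor of the cytokine MIF, fell. In macrophage-like cells Lyve1 alone of 7 passed (-2.90 ± 0.27). In Spp1-high cells Lyve1 (-3.14 ± 0.59) and Cd74 (-1.07 ± 0.12) were lower.

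The genes whose level over the 16 clusters of at least 30 cells was most like that of Spp1, by Pearson's r of log2(CPM + 10), were Psmb6 (0.95), a proteasome subunit gene, Pkm (0.93), the pyruvate kinase gene of glycolysis, Dctn3 (0.92), Lgals3 (0.92), Aprt (0.92) and Esd (0.91), among 4840 genes ranked. Of the receptors Itgav came nearest (0.68), then Itgb5 (0.55), Cd44 (0.36) and Itgb1 (0.27), while Itgb3 had -0.23. The clusters share libraries, and their median depth differed from 4180 to 18054 UMIs per cell, so these are descriptions without a test.

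The sequences just before the start sites of Spp1, Itgav and Itgb5 are given because these 3 genes were higher in HFD in both sums. Among the HFD samples they did not move together, since each was highest over whole samples in a different one. They are the 250 bases upstream from RefSeq on build GRCm38.p6, plus strand, at chr5:104434861-104435110 for Spp1 (the more upstream of 2 listed starts), chr2:83724147-83724396 for Itgav and chr16:33829415-33829664 for Itgb5. Capitals mark matches on either strand to ACCACA (the core bound by RUNX factors), GAGGAAG (ETS factors such as PU.1), TGANTCA (AP-1) and GGGCGG (the GC box). These motifs were chosen with the sequences in view.
Spp1: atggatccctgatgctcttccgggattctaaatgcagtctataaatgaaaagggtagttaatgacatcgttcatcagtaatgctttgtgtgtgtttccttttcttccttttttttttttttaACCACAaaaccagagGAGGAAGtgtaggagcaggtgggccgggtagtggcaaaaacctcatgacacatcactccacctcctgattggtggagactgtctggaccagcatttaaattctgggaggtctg
Itgav: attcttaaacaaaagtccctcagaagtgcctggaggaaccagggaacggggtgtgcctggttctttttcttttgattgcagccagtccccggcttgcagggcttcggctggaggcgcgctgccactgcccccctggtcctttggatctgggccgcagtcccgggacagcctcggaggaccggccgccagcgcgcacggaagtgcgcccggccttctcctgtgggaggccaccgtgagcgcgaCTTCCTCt
Itgb5: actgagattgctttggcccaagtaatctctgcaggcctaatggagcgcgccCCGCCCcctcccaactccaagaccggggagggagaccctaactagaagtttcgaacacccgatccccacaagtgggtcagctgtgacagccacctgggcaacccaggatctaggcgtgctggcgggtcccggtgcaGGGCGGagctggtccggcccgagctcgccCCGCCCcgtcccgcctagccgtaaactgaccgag

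The Spp1 window held ACCACA 128 to 123 bases before the start and GAGGAAG 113 to 107 bases before it. The Itgav window held GAGGAAG on the minus strand 8 to 2 bases before the start. The Itgb5 window held GGGCGG at 199 to 194, 63 to 58 and 34 to 29 bases before the start. None of the 3 windows held TGANTCA. Over 32851 promoter windows of the same length, ACCACA stood in 14.0%, GAGGAAG in 10.6%, TGANTCA in 6.75% and GGGCGG in 32.7%, so each match is common. A match is a description of letters and not a site.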

How the data were processed

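The 6 matrices, per the labels and the files, hold raw UMI counts per gene and barcode as deposited by the authors, and the counts were used unchanged. The submitters' processing notes name Cell Ranger, Seurat 2.4 and mm9, without a role for each. No source used here says how barcodes were called. No coordinates of that build are printed.

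Barcodes recur between the matrices, so each was counted only in the sample where it had most UMIs. Cells with at least 200 genes and at most 10% mitochondrial UMIs were kept. They were clustered with scanpy 1.11.5 and leidenalg 0.10.2 on 2000 variable genes without the 6 members (30 components, 20 neighbours, resolution 1), which gave 20 clusters. Clusters were named from 23 marker lists. The naming thresholds were set after seeing the data: a name needed 3 markers raised at least 2-fold, and either 3 markers among the 10 leading genes or a mean log2 score of at least 1.2 with a macrophage score under 0.8. Macrophage-like needed 6 of 10 macrophage markers at 100 CPM or more, at or above their median over clusters, and no more markers of another list than of its own among the 10 leading genes. No doublet caller was run; leaving out cells above 30000 UMIs was an alternative added after seeing the data, as were leaving out the cell with most Spp1, a threshold of 1 UMI per 10000 and keeping the Fosl2-led cluster in the class.

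Counts were summed per sample and tested with edgeR 4.0.16 (R 4.3.3, TMM, filterByExpr, quasi-likelihood F test, Benjamini-Hochberg adjustment over all genes tested). The same test was also run on counts simulated from the means and dispersions of these data. Spp1-high and other cells were summed per sample with at least 10 cells of each kind, with sample as a block and Spp1 left out. Shares of cells were compared with exact permutation tests over all arrangements of the samples, and exact intervals were computed with scipy 1.17.1. DESeq2 1.42.0, other filters, left-out samples and the replicate number as a block were alternatives. Same-numbered samples deviated with correlations of -0.16, -0.07 and -0.13 over whole samples, so the numbers do not pair them.

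The members and the 10 gene lists were chosen with earlier results of these data known. The text names the members, up to 4 genes per list by smallest p, the 8 largest rises and 8 largest falls with Spp1 among called genes of at least 50 CPM, and the 6 genes most like Spp1 over clusters; Apoe and Folr2 in Spp1-high cells and Mfge8 in macrophage-like cells were named after their values were seen. Of 244 list and marker symbols 243 were found.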

Additional observations from a re-analysis of the deposited data

How the results depend on the processing

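No called fold change of the 6 members by diet and no difference in shares changed sign under any alternative run. The uncalled Itgb1 (both sums) and Cd44 (macrophage-like cells) had either sign. The other named genes were not followed through left-out samples, DESeq2 or the replicate block. The Spp1 log2 fold change over whole samples was no longer called with the replicate number as a block (2.68) or with only barcodes listed in exactly 1 sample (1.93), and ranged from 2.05 to 3.30 with each sample left out. In macrophage-like cells it was not called with the block (3.10), and ranged from 2.34 to 4.29 with each sample left out. As deposited it was 1.54, in a class named anew from the entries, which also holds for the as-deposited gene count of that class below. The count of genes differing by diet over whole samples was 3389, 2233 (without HFD 1) to 3333 with each sample left out, and 1940 with barcodes of exactly 1 sample. In macrophage-like cells it was 1546, 496 (without HFD 1) to 2132 (without control 3) with each sample left out, 2357 with no filter on low counts, 652 with the block, 940 as deposited, 846 with barcodes of exactly 1 sample and 2437 with the Fosl2-led cluster in the class. Genes differing between Spp1-high and other cells numbered 19, 349 at 5 per 10000, 248 at 1 per 10000 and 99 with no filter on low counts; a threshold of 20, barcodes of exactly 1 sample, resolution 0.5 and leaving out HFD 1 or HFD 3 left too few samples to be fitted. The difference in the share of cells with a Spp1 UMI was 28.1 percentage points without thinning, 6.17 as deposited and 4.97 with barcodes of exactly 1 sample. The difference in the share of Spp1-high cells was 0.222 as deposited, 0.566 with barcodes of exactly 1 sample, 2.10 at a mitochondrial limit of 5%, 3.65 at 5 per 10000 and 1.45 at 20 per 10000. Itgav in macrophage-like cells lost its call in 9 of 15 alternatives, among them DESeq2 (1.11). The causes were not tested. Itgb3 and single pairs of receptors are limited by depth.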

Other observations

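Genes of lipid-associated macrophages were higher in HFD over whole samples for 13 of 16 tested and lower for 0 (median log2 fold change 1.31, against -0.02 for all genes), and for 8 of 16 in macrophage-like cells (median 1.03). Of all genes, 15.2% were higher and 17.2% lower over whole samples, 7.29% and 10.5% in macrophage-like cells, and 2.1% and 2.43% in Spp1-high cells, the shares beside which the counts here stand. Over whole samples these include the tetraspanin gene Cd9 (1.62 ± 0.15), the galectin-1 gene Lgals1 (1.24 ± 0.17), the cathepsin B gene Ctsb (1.25 ± 0.19) and the lipid droplet gene Plin2 (1.23 ± 0.19), with edgeR adjusted p-values of up to 0.0017. Resident macrophage genes were lower for 8 of 10 over whole samples (median -1.99) and for 10 of 10 in macrophage-like cells (median -2.52), where the haemoglobin scavenger receptor gene Cd163 had -3.48 ± 0.27 and F13a1 -2.15 ± 0.17 (edgeR adjusted p 0.00018 each). Clusters led by resident genes held more control than HFD cells, as given above. The extent to which these calls reflect the shift between clusters was not tested.

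Of the machinery that links integrins to actin, 3 of 18 genes were higher and 5 lower over whole samples, against 15.2% and 17.2% of all genes, and nothing is read from these counts. The focal adhesion genes Zyx (-0.79 ± 0.08) and Parvb (-0.92 ± 0.13) fell, and Parva (2.00 ± 0.42) and the integrin-linked kinase gene Ilk (0.41 ± 0.09) rose. In macrophage-like cells 1 of 14 passed, Itgb1bp1 (0.65 ± 0.20), and in Spp1-high cells 0 of 13 passed by edgeR at an adjusted p under 0.05, and 2 had an unadjusted p under 0.05. Among other leukocyte integrin chains, 2 of 5 fell and 0 rose over whole samples, Itgam (-1.22 ± 0.15), the sorted CD11b chain itself, and Itgal (-1.62 ± 0.35). In macrophage-like cells Itgam again fell (-1.33 ± 0.26, edgeR adjusted p 0.011). In Spp1-high cells 2 of 4 rose, Itgax (0.95 ± 0.15), the CD11c chain, and its partner Itgb2 (0.73 ± 0.13).

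Fibrosis and matrix genes were higher in HFD for 6 of 9 and lower for 1 over whole samples (median 2.33), led by the collagen genes Col3a1 (3.42 ± 0.34), Col1a2 (2.95 ± 0.36) and Col1a1, and by Sparc (2.33 ± 0.35). Col1a1, Col1a2 and Col3a1 are also on the list of 8 fibroblast markers, whose summed level was 3087, 4134 and 3345 CPM in HFD 1, 2 and 3, against 1096, 317 and 776 CPM in control 1, 2 and 3; its part was not tested. In macrophage-like cells 4 of 8 were higher and 1 lower, and in Spp1-high cells 0 of 8 passed by edgeR, also at an unadjusted p under 0.05.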
